A study of Mus musculus with 24 samples.

Results

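H3K9ac was examined at the 10 genes that encode the NF-kB subunits and their inhibitors. The genes were taken by name: the subunits Rela, Relb, Rel, Nfkb1 and Nfkb2, the classical inhibitors Nfkbia, Nfkbib and Nfkbie, and the atypical inhibitor-family members Nfkbiz and Bcl3. They are 10 of 21755 protein-coding genes on chromosomes 1 to 19 and X, and all 10 carried a promoter peak in each of the 12 libraries, as 10777 genes did. The study asked whether loss of CPT1a or KAT2a acts on NF-kB through acetylation of histones, since KAT2a is known both for acetylating H3K9 and for other substrates. H3K9ac was profiled by ChIPmentation, in which immunoprecipitated chromatin is cut and tagged by the transposase Tn5, in spheroids of 4T1, a mouse mammary carcinoma cell line.

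NF-kB factors are dimers of Rel-family proteins. RELA (p65), RELB and c-REL carry transactivation domains, whereas p50 and p52, made from the precursors encoded by Nfkb1 and Nfkb2, do not. In resting cells the classical inhibitors hold the dimers in the cytoplasm, and signalling through the IKK kinase complex leads to their degradation, so that dimers reach the nucleus and bind kappaB motifs in target genes. Several members are known targets of NF-kB themselves, among them Nfkbia, Nfkbie, Nfkb2, Rel and Bcl3, which closes feedback loops. H3K9ac lies around the start sites of active genes, and each value below is a property of a called peak and not of a transcript or a protein.

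4 groups of 3 libraries were compared, and all came from 4T1 spheroids collected on day 5. The scramble, CPT1a knockout and KAT2a knockout groups were grown with 75 µM palmitate, and the fourth group carried the CPT1a knockout and received 5 mM acetate, with no palmitate named in its labels. The text of the study describes this comparison as made in the presence of palmitate, so whether the acetate group also received it is unsure. The knockout lines, selected with puromycin, held doxycycline-inducible Cas9 and a guide against an exon of Cpt1a or Kat2a. Peak lists do not show the edits, so the genotypes were not checked, and the guide used in each library is not given. The labels do not say whether replicates came from separate cultures, so every p-value below measures the spread between these libraries, which may be technical. CPT1a, encoded by Cpt1a, is an enzyme that helps long-chain fatty acids to enter mitochondria for oxidation.

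Each peak list was called on 1 library by the authors and held 16212 to 34370 peaks, at a calling depth (the background coverage implied by the fold enrichments and p-values of a list) of 0.554 to 2.52. Fold enrichment, the summit height over local background in the same library, is not scaled between libraries, so each promoter was compared by its rank percentile within a library, where 100 is the strongest of the 10777 genes. The 3 scramble lists stood apart: 43.5% to 55.6% of all genes had more than 1 promoter peak there, against 17.0% to 37.1% in the other 9 libraries, and so had 5 to 7 members against 2 to 4. Of 10 epithelial markers, 7 had a promoter peak in all 12 libraries, Krt14 had one in 3 libraries, and Krt5 and Trp63 had none. The fibroblast markers Pdgfra and Col1a1 had one in 12 and 11 libraries, while Dcn, Lum and Pdgfrb and all leukocyte, endothelial, hepatocyte and neuron markers tested had none. The part of peak splitting and depth in the results below was not tested beyond the fits given, and since the labels name no batch, batch and group cannot be told apart.

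The promoters were first read for kappaB motifs, which bear on the feedback of NF-kB on its own genes. Promoter sequences, from 250 bases before to 50 after a start site, were taken from RefSeq (GRCm38.p6) and were found for 7 members. Relb, Nfkb1 and Nfkbiz were not matched. On either strand, GGG, 2 free bases, TT, 1 free base and CC, 10 letters in all, occurred in Rel, Nfkb2, Nfkbia and Bcl3, 4 of the 7 members, against 5.48% of 27025 genes with a promoter in the table (4.79% of 32851 promoters). The consensus kappaB motif, which can overlap the former, occurred in those 4 and in Nfkbie, against 9.55% of genes (8.46% of promoters), and Rela and Nfkbib held neither. Promoters with a match are shown because the H3K9ac peaks below are placed against these sites, except that of a further Nfkb2 start, which overlaps the second and repeats 1 of its matches. They are Rel (chr11:23770920-23771219, minus strand), Nfkb2 at its first (chr19:46304487-46304786, plus) and second listed start (chr19:46305445-46305744, plus), Nfkbia (chr12:55492598-55492897, minus), Nfkbie (chr17:45555450-45555749, plus) and Bcl3 (chr7:19822706-19823005, minus). Capitals mark bases in a match to either motif, and each is written 5′ to 3′ along the gene:
Rel: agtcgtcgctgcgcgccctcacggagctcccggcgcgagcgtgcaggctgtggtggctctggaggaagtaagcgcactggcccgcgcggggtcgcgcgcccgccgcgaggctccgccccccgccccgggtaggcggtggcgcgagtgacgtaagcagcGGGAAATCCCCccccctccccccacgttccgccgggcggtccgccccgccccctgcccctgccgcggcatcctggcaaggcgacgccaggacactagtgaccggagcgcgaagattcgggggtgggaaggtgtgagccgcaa
Nfkb2, first start: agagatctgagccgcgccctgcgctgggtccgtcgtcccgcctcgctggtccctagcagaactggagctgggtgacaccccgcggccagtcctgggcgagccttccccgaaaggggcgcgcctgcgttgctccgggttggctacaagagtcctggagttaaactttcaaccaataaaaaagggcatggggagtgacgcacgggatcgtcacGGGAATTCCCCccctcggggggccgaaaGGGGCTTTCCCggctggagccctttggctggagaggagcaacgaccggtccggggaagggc
Nfkb2, second start: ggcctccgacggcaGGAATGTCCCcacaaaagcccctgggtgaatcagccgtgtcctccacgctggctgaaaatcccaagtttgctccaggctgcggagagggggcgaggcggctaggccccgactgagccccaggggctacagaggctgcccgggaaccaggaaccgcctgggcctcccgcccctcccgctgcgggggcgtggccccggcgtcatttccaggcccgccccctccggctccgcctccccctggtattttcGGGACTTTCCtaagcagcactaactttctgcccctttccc
Nfkbia: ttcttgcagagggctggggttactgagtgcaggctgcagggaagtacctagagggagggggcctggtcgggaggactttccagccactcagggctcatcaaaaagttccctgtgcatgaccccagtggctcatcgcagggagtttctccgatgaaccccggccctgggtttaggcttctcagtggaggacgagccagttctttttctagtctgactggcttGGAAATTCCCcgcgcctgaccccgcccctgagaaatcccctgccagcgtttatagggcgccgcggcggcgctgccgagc
Nfkbie: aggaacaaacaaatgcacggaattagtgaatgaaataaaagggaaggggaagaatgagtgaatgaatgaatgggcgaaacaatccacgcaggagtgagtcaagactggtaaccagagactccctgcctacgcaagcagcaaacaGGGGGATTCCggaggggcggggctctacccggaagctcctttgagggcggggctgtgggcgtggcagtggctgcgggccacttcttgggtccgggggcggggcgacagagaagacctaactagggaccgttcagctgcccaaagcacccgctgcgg
Bcl3: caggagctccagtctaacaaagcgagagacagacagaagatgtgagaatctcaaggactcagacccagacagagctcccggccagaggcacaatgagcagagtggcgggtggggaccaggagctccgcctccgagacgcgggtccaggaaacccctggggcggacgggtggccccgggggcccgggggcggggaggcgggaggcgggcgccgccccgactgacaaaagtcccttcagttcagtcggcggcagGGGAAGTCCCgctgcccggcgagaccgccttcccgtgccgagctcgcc

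All 10 members had a promoter peak (within 1 kb of an annotated start site, GENCODE vM21) in all 12 libraries, which makes 120 of 120 pairs. The matched bases lay under a peak in every library at all 4 sites of Nfkb2 and at the single site of Nfkbia. The Rel site was covered in 11 libraries, all but scramble replicate 2, where it fell between the pieces of a split peak. At Bcl3 the site lay under a peak in 9 libraries, of which 1 was scramble, and at Nfkbie in 1 KAT2a knockout library. Summits lay 206 to 685 bp from the Nfkb2 sites and 259 to 593 bp from the Nfkbia site, and up to 1066 bp from the Rel site. These are positions of letters under peaks, and binding of NF-kB was not measured.

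**Figure D1:**
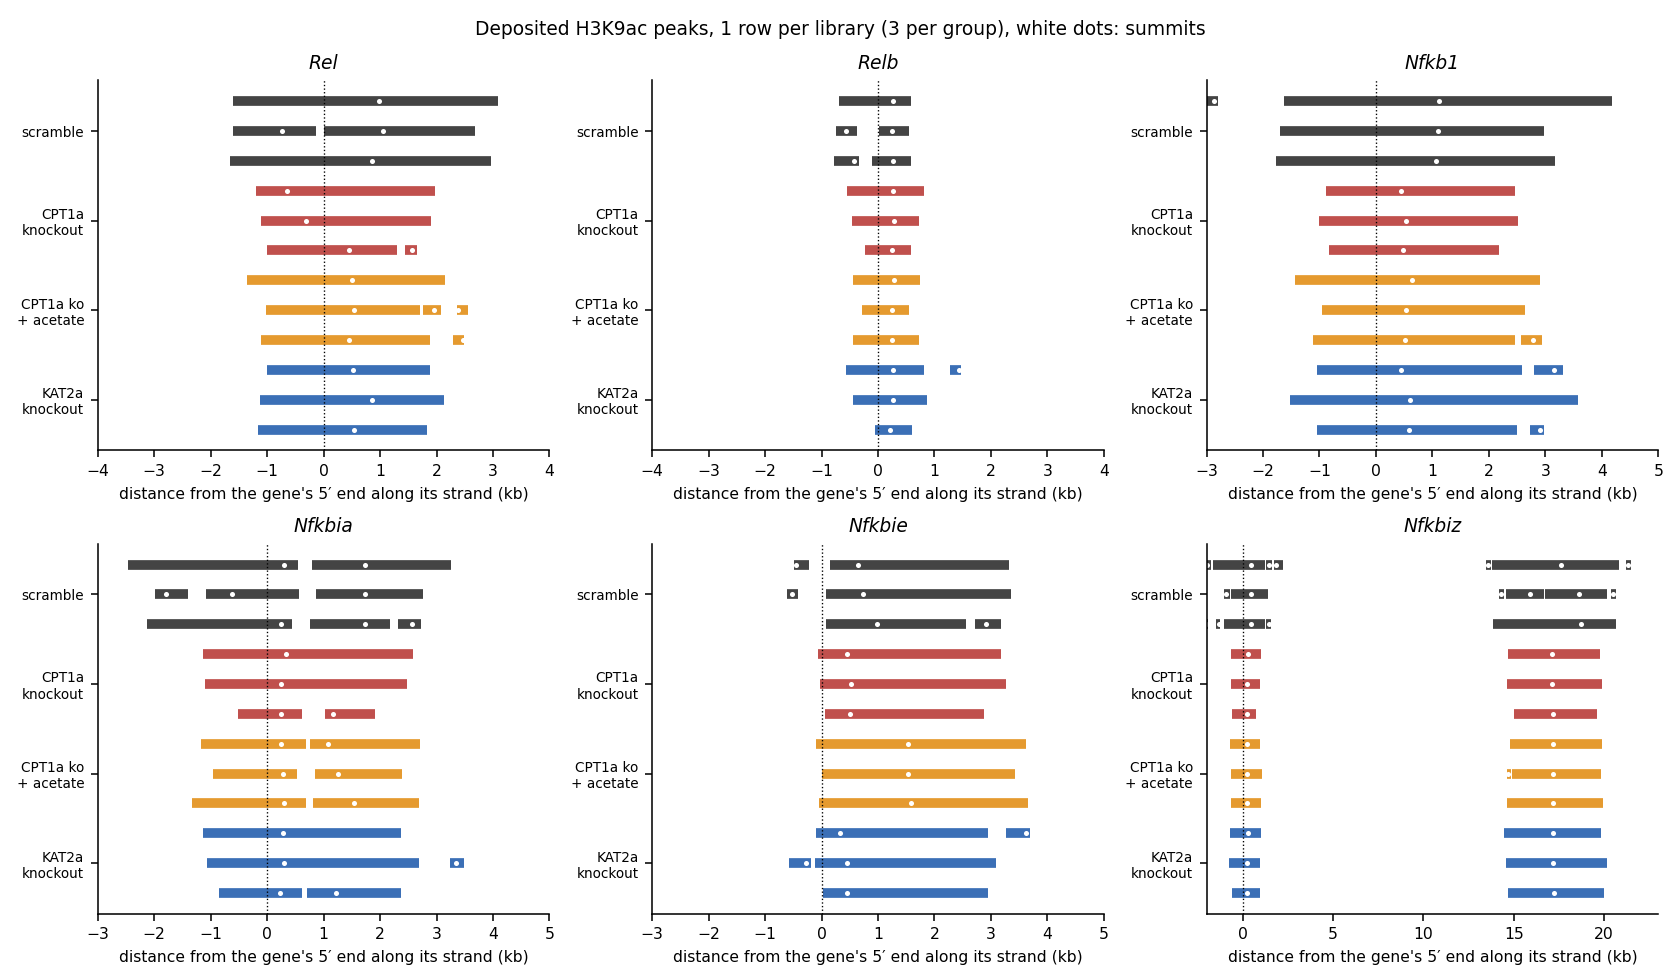
Deposited H3K9ac peaks (bars) and their summits (white dots) at 6 members, 1 row per library and 3 rows per group, against distance in kb from the gene's 5′ end along its strand. Scramble peaks at Rel reach further into the gene than those of the other libraries. Nfkbia is cut in pieces in all 3 scramble and all 3 acetate libraries, and in replicate 3 of CPT1a knockout and of KAT2a knockout. The strongest peak of Nfkbiz has its summit 17130 to 18738 bp inside the gene.

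Among the members, Nfkb1 had the strongest promoter, with a median percentile of 98.9 over the 12 libraries. It was followed by Nfkbiz (86.3), Nfkbia (71.5), Nfkb2 (71.3) and Rela (70.3), then by Rel (51.4), Relb (49.3) and Bcl3 (48.1), and last by Nfkbie (32.8) and Nfkbib (27.6). Neighbours in this order were mostly not separated. Nfkb1 exceeded Nfkbiz in 11 of 12 libraries by 16.1 ± 18.3 percentile points (SD, n = 12), while for the other neighbouring pairs the upper gene was higher in 5 to 9 libraries and the mean difference was smaller than its SD. Widths were ordered otherwise, since Nfkbiz had the widest strongest peak (median 5302 bp, wider than 98.1% of genes) and Relb the narrowest (1168 bp, wider than 9.54%).

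**Figure D2:**
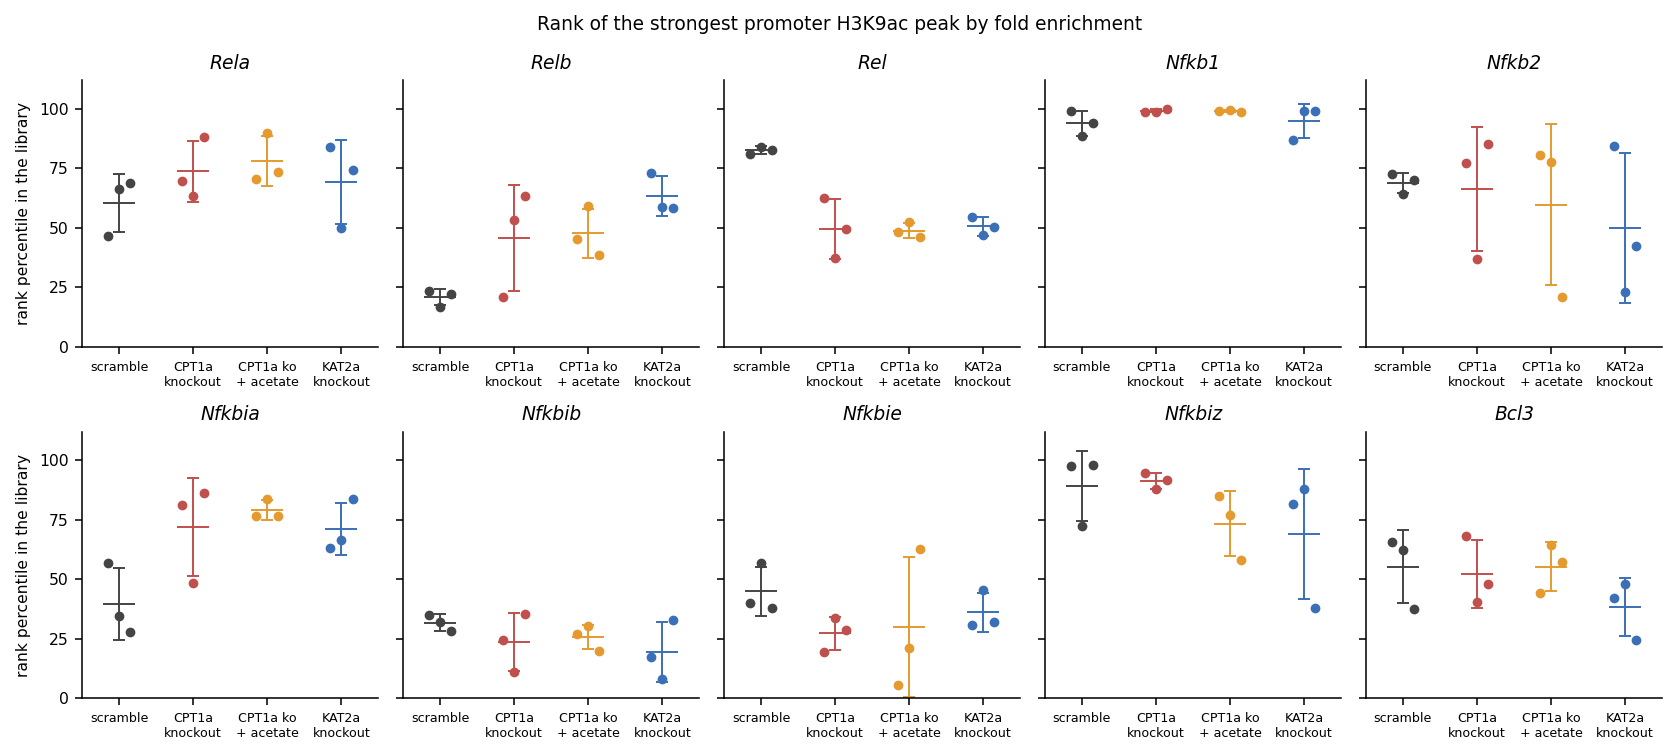
Rank percentile, by fold enrichment, of the strongest promoter peak of each member in its library; points are libraries, horizontal lines group means and bars 1 SD (n = 3). Rel lies at 80.9 or above in scramble and at 62.5 or below elsewhere, and Relb lies at 23.6 or below in scramble.

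The promoter of Rel ranked lower in CPT1a knockout than in scramble, with and without acetate. Rel (ENSMUSG00000020275.9, chr11:23736847-23770970, minus strand) encodes c-REL, a subunit best known from lymphocytes. Its percentiles were 80.9, 84.1 and 82.8 in scramble replicates 1 to 3, against 62.5, 37.2 and 49.4 in CPT1a knockout, 48.1, 52.3 and 46.0 with acetate, and 54.8, 46.9 and 50.4 in KAT2a knockout. All 9 values outside scramble lay below all 3 scramble values, and the 3 other groups overlapped one another. Normal scores, which spread ranks on the scale of a standard normal distribution, were fitted over all 10777 genes with limma. On that scale Rel fell by 0.95 in CPT1a knockout (SE 0.26, adjusted p = 0.0306) and by 0.97 with acetate against scramble (adjusted p = 0.04), while the difference of -0.92 in KAT2a knockout missed the threshold (adjusted p = 0.0566) but passed it without CPT1a knockout replicate 1 (adjusted p = 0.0416) and with the GC trend removed (-1.01, adjusted p = 0.0445). Acetate against CPT1a knockout gave -0.02 (adjusted p = 0.993). The deposited fold enrichment itself was 25.8 to 28.3 in scramble and 18.4 to 30.7 elsewhere, so the rank of Rel moved while its own fold values overlapped. Whether H3K9ac at Rel itself fell was not measured, because a rank also falls when other promoters rise. In bulk chromatin, the level per cell and the share of cells with the mark cannot be told apart.

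For Rel, scramble against the other 9 libraries allowed an exact permutation test over 220 assignments. The mean percentile was 32.9 points lower outside scramble (82.6 ± 1.61, n = 3, against 49.7 ± 6.87, n = 9), with a two-sided exact p of 0.00455, the smallest possible, and 0.0538 after adjustment over all genes. Such a separation was found for 12.6% of all genes, or 8.12% with scramble higher, and Rel was 1 of 10 members. After adjustment, 0% of genes passed this exact test of rank. Relb and Nfkbia were 31.4 and 34.4 points higher outside scramble, with overlap (exact permutation p = 0.0136 and 0.00909, adjusted p = 0.0949 and 0.0764). With 3 libraries against 3 the exact p cannot go below 0.1. The limma call in CPT1a knockout was lost (adjusted p 0.0622 to 0.0949) without any one of scramble replicates 1, 2 and 3 or CPT1a knockout replicates 2 and 3, and with calling depth as a covariate (-0.97, adjusted p = 0.0689). The call of acetate against scramble was lost without any one scramble or acetate library or KAT2a knockout replicates 1 or 2 (adjusted p 0.0525 to 0.111), and with the depth covariate (-0.99, adjusted p = 0.0793).

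Relb ranked higher in KAT2a knockout. Relb (ENSMUSG00000002983.17, chr7:19606217-19629438, minus strand) encodes the subunit that pairs with p52 in the non-canonical pathway. Its percentiles were 23.6, 17.0 and 22.1 in scramble, 20.9, 53.3 and 63.4 in CPT1a knockout, 45.3, 59.1 and 38.8 with acetate, and 73.2, 58.7 and 58.2 in KAT2a knockout. The 3 scramble libraries were the lowest but for CPT1a knockout replicate 1, which lay among them. The normal score rose by 1.16 in KAT2a knockout against scramble (limma, SE 0.29, adjusted p = 0.0375). The differences were 0.69 in CPT1a knockout (adjusted p = 0.139), 0.76 with acetate against scramble (0.138) and 0.07 between acetate and CPT1a knockout (0.973), none past the threshold. Without CPT1a knockout replicate 1, the difference in CPT1a knockout was 1.03 and passed (adjusted p = 0.0333). The fold enrichment of Relb was 11.8 to 13.4 in scramble and 18.9 to 36.3 elsewhere. The call in KAT2a knockout was lost (adjusted p 0.0525 to 0.114) without any one of the scramble or KAT2a knockout libraries or acetate replicate 1, and with calling depth as a covariate (1.00, adjusted p = 0.0763). Of all members, Relb had the widest range of group mean percentiles (42.5 points). The genes whose normal scores followed those of Relb most closely over the 12 libraries were Plk4, Crtap, Cct2, Jund and Haus8. Their Pearson r was 0.938, 0.929, 0.92, 0.915 and 0.911. These coefficients rank the closest of 10777 genes over libraries that share depth and group, and they describe the pattern only.

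Rela (ENSMUSG00000024927.8, chr19:5637483-5648130, plus strand), the gene for p65, passed the rank threshold in no comparison. Its percentiles were 46.6, 66.3 and 68.7 in scramble, 69.9, 63.4 and 88.2 in CPT1a knockout, 70.7, 90.0 and 73.3 with acetate, and 84.0, 49.9 and 74.3 in KAT2a knockout. The acetate group lay wholly above scramble and the knockout groups without acetate overlapped it. The fitted differences were 0.41, 0.54 and 0.27 for CPT1a knockout, acetate and KAT2a knockout against scramble (SE 0.36, limma adjusted p = 0.487, 0.38 and 0.7), and with calling depth as a covariate the first had the other sign, at -0.02. The Rela peak spans the first start-site cluster, and a second annotated start 3663 bp downstream carried a peak only in KAT2a knockout replicate 2.

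Nfkb1 (ENSMUSG00000028163.17, chr3:135584655-135691547, minus strand), the gene for p105 and p50, was near the top of every list. Its percentiles were 99.3, 88.7 and 93.9 in scramble, 98.8, 98.8 and 99.9 in CPT1a knockout, 99.2, 99.6 and 98.7 with acetate, and 86.8, 99.3 and 99.0 in KAT2a knockout. Scramble and KAT2a knockout each held 1 library below 90, and no comparison passed the threshold (smallest limma adjusted p = 0.268). Of 6 annotated start-site clusters of Nfkb1, only the first carried a peak in all libraries, and the third carried one in 1 scramble library. Nfkb2 (ENSMUSG00000025225.15, chr19:46304320-46312385, plus strand), the gene for p100 and p52, varied within groups, with percentiles of 72.7, 64.4 and 70.0 in scramble, 77.2, 36.8 and 85.4 in CPT1a knockout, 80.6, 77.8 and 20.9 with acetate, and 84.4, 23 and 42.3 in KAT2a knockout. All groups overlapped, and every adjusted p was at least 0.612.

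Among the classical inhibitors, Nfkbia stood higher outside scramble without passing the threshold. Nfkbia (ENSMUSG00000021025.8, chr12:55489410-55492647, minus strand) encodes IkBa, which is resynthesised after NF-kB activation and ends the response. Its percentiles were 56.9, 34.4 and 27.7 in scramble, 81.3, 48.6 and 86.1 in CPT1a knockout, 76.4, 83.8 and 76.6 with acetate, and 63.3, 66.6 and 83.7 in KAT2a knockout. CPT1a knockout replicate 2 overlapped scramble, and the acetate and KAT2a knockout groups lay wholly above it. The normal-score differences from scramble were 0.92, 1.08 and 0.86 for CPT1a knockout, acetate and KAT2a knockout (SE 0.34, limma adjusted p = 0.0944, 0.0723 and 0.16). Without CPT1a knockout replicate 2 the first was 1.26 and passed (adjusted p = 0.0376). With the trend of rank on promoter GC content removed they were 0.58, 0.71 and 0.64. The Nfkbia promoter is GC-rich (62.0%, above 91.5% of genes). Its deposited fold enrichment was 13.8 to 20.0 in scramble and 26.2 to 37.5 elsewhere, with no overlap, on a scale not shared between libraries.

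Nfkbib (ENSMUSG00000030595.15, chr7:28758251-28767512, minus strand) and Nfkbie (ENSMUSG00000023947.8, chr17:45555703-45563169, plus strand), which encode IkBb and IkBe, had the weakest promoters. Nfkbib lay between 8.26 and 35.6 in all libraries, and its peak also covered the promoter of Sirt2, the neighbouring gene for a deacetylase, in all 12 libraries, so the peak cannot be assigned to 1 of them. Nfkbie had percentiles of 40.0, 56.9 and 37.9 in scramble, 19.7, 33.6 and 28.6 in CPT1a knockout, 5.8, 21.2 and 62.9 with acetate, and 31.0, 45.6 and 31.9 in KAT2a knockout. The CPT1a knockout values of Nfkbie lay below scramble (-0.48, SE 0.36, limma adjusted p = 0.4), and the acetate group spanned the range of all others.

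The atypical members act in the nucleus, where IkBz, encoded by Nfkbiz, and BCL3 bind p50 or p52 dimers as cofactors. For both, the strongest promoter peak lay by an internal start site. That of Nfkbiz (ENSMUSG00000035356.17, chr16:55811375-55838899, minus strand) covered or lay within 1 kb of start sites 16761 and 20384 bp into the gene, with percentiles of 97.4, 72.2 and 98.2 in scramble, 94.6, 87.9 and 91.7 in CPT1a knockout, 84.8, 77.0 and 58.2 with acetate, and 81.6, 87.9 and 37.9 in KAT2a knockout. Acetate lay wholly below CPT1a knockout there (-0.73, SE 0.45, limma adjusted p = 0.663), and KAT2a knockout differed from scramble by -0.96 (adjusted p = 0.232). At its 5′ start, ranked in place of the strongest peak, Nfkbiz stood at 49.6 to 91.5 in scramble and 20.8 to 58.3 elsewhere. Bcl3 (ENSMUSG00000053175.17, chr7:19808462-19822770, minus strand) had its strongest peak by a start site 6774 bp into the gene, with summits at 5543 to 5941 bp (percentiles of 24.4 to 68.2), and a weak one at the 5′ start (1.08 to 15.5 over the 12 libraries). All groups overlapped at Bcl3, and no comparison passed the threshold (smallest adjusted p = 0.408).

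Over the members, the rank comparison called 1 of 10 in CPT1a knockout against scramble (Rel, lower), where 10.6% of all genes were called, 5.1% higher and 5.46% lower. It called 1 in KAT2a knockout against scramble (Relb, higher), where 3.83% of genes were called, 1.59% higher and 2.25% lower. Acetate against scramble called 1 (Rel, lower), where 5.92% of genes were called, 1.87% higher and 4.05% lower. Acetate against CPT1a knockout called 0 members and 0% of genes by limma, with 1000 genes and 0 members at an unadjusted p under 0.05. The median member difference in normal score was -0.04 in CPT1a knockout, -0.34 in KAT2a knockout and -0.09 with acetate against scramble, beside 0.012, 0 and 0 over all genes. Between acetate and CPT1a knockout it was 0.02, beside -0.023. These comparisons share the scramble or the CPT1a knockout libraries. Members whose groups did not overlap numbered 2 of 10 in CPT1a knockout against scramble (Rel and Nfkbie, lower), beside 30.9% of all genes, and 3 in KAT2a knockout (Relb and Nfkbia higher, Rel lower), beside 29.3%. With acetate they numbered 4 against scramble (Rela, Relb and Nfkbia higher, Rel lower), beside 31.9%, and 1 against CPT1a knockout (Nfkbiz, lower), beside 14.2%. These shares lie near the background.

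**Figure D3:**
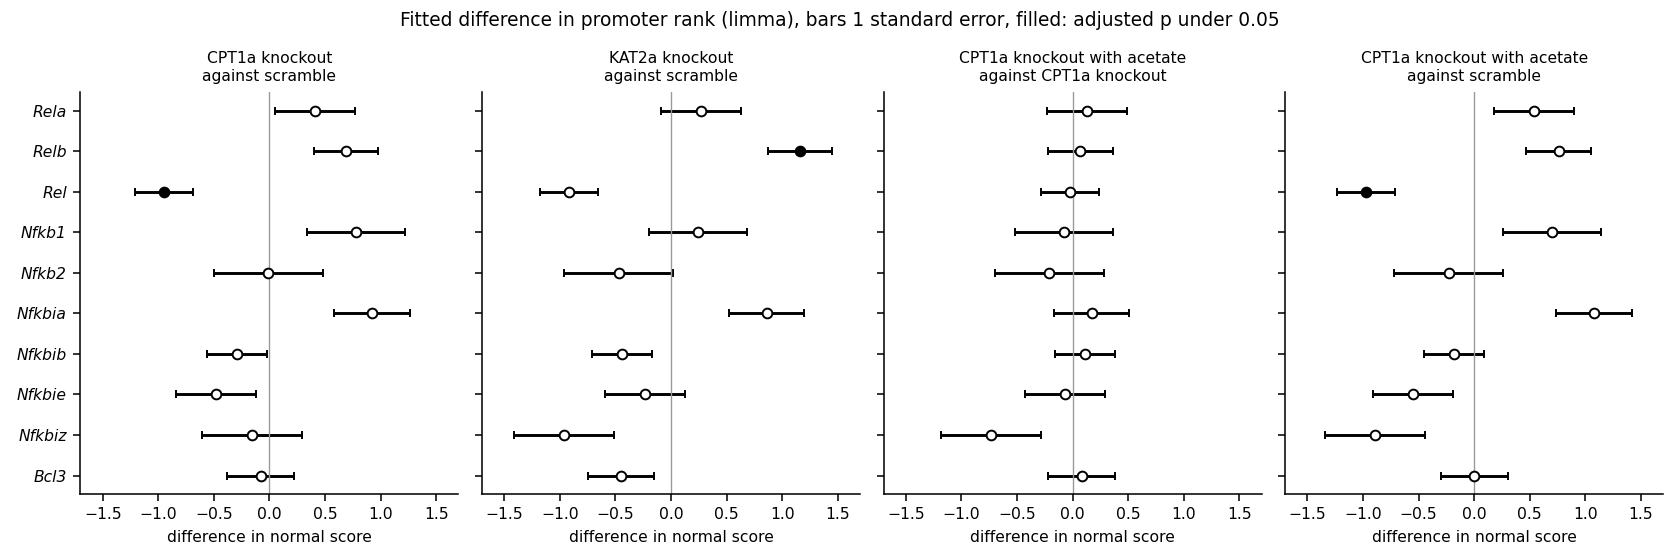
Fitted difference in normal score of the promoter rank for each member in the 4 comparisons, with bars of 1 standard error (limma, 3 libraries per group); filled points have an adjusted p under 0.05. Rel is filled in CPT1a knockout and in acetate against scramble, Relb in KAT2a knockout, and all points of acetate against CPT1a knockout are open.

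The choice of the ranked column mattered for the members. Ranked by the deposited -log10 p in place of fold enrichment, 4 members passed the threshold in each comparison with scramble, beside 34.2%, 24.6% and 26.5% of all genes in CPT1a knockout, in KAT2a knockout and with acetate. Relb and Nfkbia were higher and Rel lower in all 3. Nfkb1 was higher in CPT1a knockout as well, which made 3 members higher (16.7% of genes) and 1 lower (17.4%). In KAT2a knockout and with acetate Nfkbiz was lower too, which made 2 higher (11.5% and 12.6%) and 2 lower (13.1% and 13.9%). No member and 0.343% of genes passed between acetate and CPT1a knockout.

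Next, the width of the promoter peaks was compared, which is in base pairs and needs no ranking. Rela and Nfkb1 had narrower peaks in CPT1a knockout than in scramble. The Rela peak measured 3995, 3535 and 3794 bp in scramble, 2495, 2527 and 2116 bp in CPT1a knockout, 2935, 2672 and 3278 bp with acetate, and 2833, 3564 and 2646 bp in KAT2a knockout. The CPT1a knockout values lay below all others. The Rela peak was 0.629-fold as wide in CPT1a knockout (limma on log2 width, -0.67, SE 0.16, adjusted p = 0.0119), and the call held with each library left out and with calling depth as a covariate (-0.50, adjusted p = 0.016).

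The Nfkb1 peak measured 5815, 4682 and 4943 bp in scramble, 3342, 3525 and 3018 bp in CPT1a knockout, 4338, 3592 and 3588 bp with acetate, and 3629, 5109 and 3554 bp in KAT2a knockout. CPT1a knockout and acetate lay wholly below scramble, and acetate wholly above CPT1a knockout. The Nfkb1 peak was 0.642-fold as wide in CPT1a knockout (-0.64, SE 0.17, adjusted p = 0.0193), but not past the threshold without scramble replicate 1 (-0.55, adjusted p = 0.0645) or CPT1a knockout replicate 3 (-0.58, adjusted p = 0.0639). With acetate, Rela and Nfkb1 were 1.24-fold and 1.16-fold as wide as in CPT1a knockout without acetate (adjusted p = 0.987 for both), and neither passed the threshold. Across all 9 other libraries the peaks averaged 2785 bp at Rela and 3744 bp at Nfkb1, against 3775 and 5147 bp in scramble (two-sided exact permutation, adjusted p = 0.0342 and 0.0466). Both were narrower outside scramble, as were 27.3% of genes among the 29.3% that passed, but the libraries overlapped (0 members without overlap, beside 24% of genes).

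Narrower peaks in CPT1a knockout were general. Over all genes the median log2 width differed from scramble by -0.38 in CPT1a knockout, -0.16 in KAT2a knockout and -0.26 with acetate, beside member medians of -0.17, 0 and -0.32. The 2 members called, both narrower, compare with 26.4% of all genes, 25.1% narrower and 1.39% wider. No member was called in KAT2a knockout (3.89% of genes, 2.91% narrower and 0.974% wider), with acetate against scramble (7.03%, of which 6.25% narrower and 0.779% wider) or in acetate against CPT1a knockout (0% of genes by limma, with 244 genes and 0 members at an unadjusted p under 0.05). Members whose widths did not overlap numbered 2 in CPT1a knockout, 0 in KAT2a knockout and 4 with acetate against scramble, beside 42.1%, 32.1% and 36.9% of genes. Between acetate and CPT1a knockout they numbered 3, beside 9.03% of genes, and all 3, Rela, Nfkb1 and Nfkbie, were wider with acetate (8.72% of genes).

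The Nfkbie peak, as deposited, measured 3165, 3285 and 2482 bp in scramble, 3241, 3303 and 2810 bp in CPT1a knockout, 3719, 3423 and 3713 bp with acetate, and 3061, 3207 and 2933 bp in KAT2a knockout. As deposited, the acetate group was wholly above the other 3 groups, with 1.16-fold the width of CPT1a knockout (limma adjusted p = 0.987) and 1.22-fold that of scramble (adjusted p = 0.21), neither past the threshold. With peaks within 500 bp joined, Nfkbie measured 3423 to 3719 bp with acetate, inside the scramble range of 3108 to 3969 bp (1.0-fold, adjusted p = 0.983), and its differences from scramble were -0.21 in CPT1a knockout and -0.07 in KAT2a knockout (adjusted p = 0.177 and 0.71). Relb, the narrowest, had 1284, 533 and 684 bp in scramble and 657 to 1374 bp elsewhere, and with calling depth as a covariate its width was higher in CPT1a knockout by 0.99 (adjusted p = 0.0446). The Relb peak was in pieces in scramble replicates 2 and 3, and joined, without that covariate, its differences from scramble were -0.26 in CPT1a knockout, -0.13 in KAT2a knockout and -0.34 with acetate (adjusted p = 0.5, 0.763 and 0.419). Rel and Nfkbiz had split peaks in scramble replicate 2, with a Rel piece of 2675 bp beside 4702 and 4625 bp in the other scramble libraries. Without that library Rel and Nfkbiz were narrower in CPT1a knockout (-0.74 and -0.47, adjusted p = 0.0136 and 0.0198) and with acetate against scramble (-0.61 and -0.43, adjusted p = 0.0477 and 0.0498).

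Because peaks split in scramble, widths were also taken after peaks within 500 bp were joined. Nfkbia changed direction in CPT1a knockout and in KAT2a knockout and passed the threshold. The Nfkbia peak was in pieces in all scramble and acetate libraries, and in replicate 3 of CPT1a knockout and of KAT2a knockout. As deposited, its strongest piece was 1638 to 2569 bp wide in scramble and 1131 to 3763 bp elsewhere, with differences of 0.18 and 0.30 in CPT1a and KAT2a knockout (adjusted p = 0.795 and 0.748). Joined, the Nfkbia domain measured 5726, 4732 and 4858 bp in scramble, 3723, 3569 and 2440 bp in CPT1a knockout, 3894, 3348 and 4019 bp with acetate, and 3505, 3763 and 3219 bp in KAT2a knockout. All 9 lay below scramble. Its differences became -0.67 in CPT1a knockout (SE 0.16, limma adjusted p = 0.00307) and -0.54 in KAT2a knockout (adjusted p = 0.019).

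The joined Rel domain was also longest in scramble, at 4702, 4287 and 4625 bp in scramble against 3164, 3008 and 2649 bp in CPT1a knockout, 3513, 3586 and 3601 bp with acetate and 2896, 3268 and 2995 bp in KAT2a knockout. Groups of Rel did not overlap between scramble and any other, nor between acetate and CPT1a knockout. Its joined width was 0.647-fold, 0.672-fold and 0.787-fold that of scramble in CPT1a knockout, KAT2a knockout and acetate (limma adjusted p = 0.000681, 0.00387 and 0.0229). In all, 7, 4 and 6 members were narrower than scramble in CPT1a knockout, KAT2a knockout and acetate, as were 72.3%, 43.5% and 48.8% of all genes (72.9%, 44.6% and 49.5% in either direction). Rela, Rel, Nfkbia and Nfkbiz were called in all 3, and Relb, Nfkbie and Bcl3 in none. Nfkb1 and Nfkb2 passed in CPT1a knockout and with acetate, and Nfkbib in CPT1a knockout (0.689-fold, adjusted p = 0.0035). Between acetate and CPT1a knockout no member and 0% of genes passed.

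**Figure D4:**
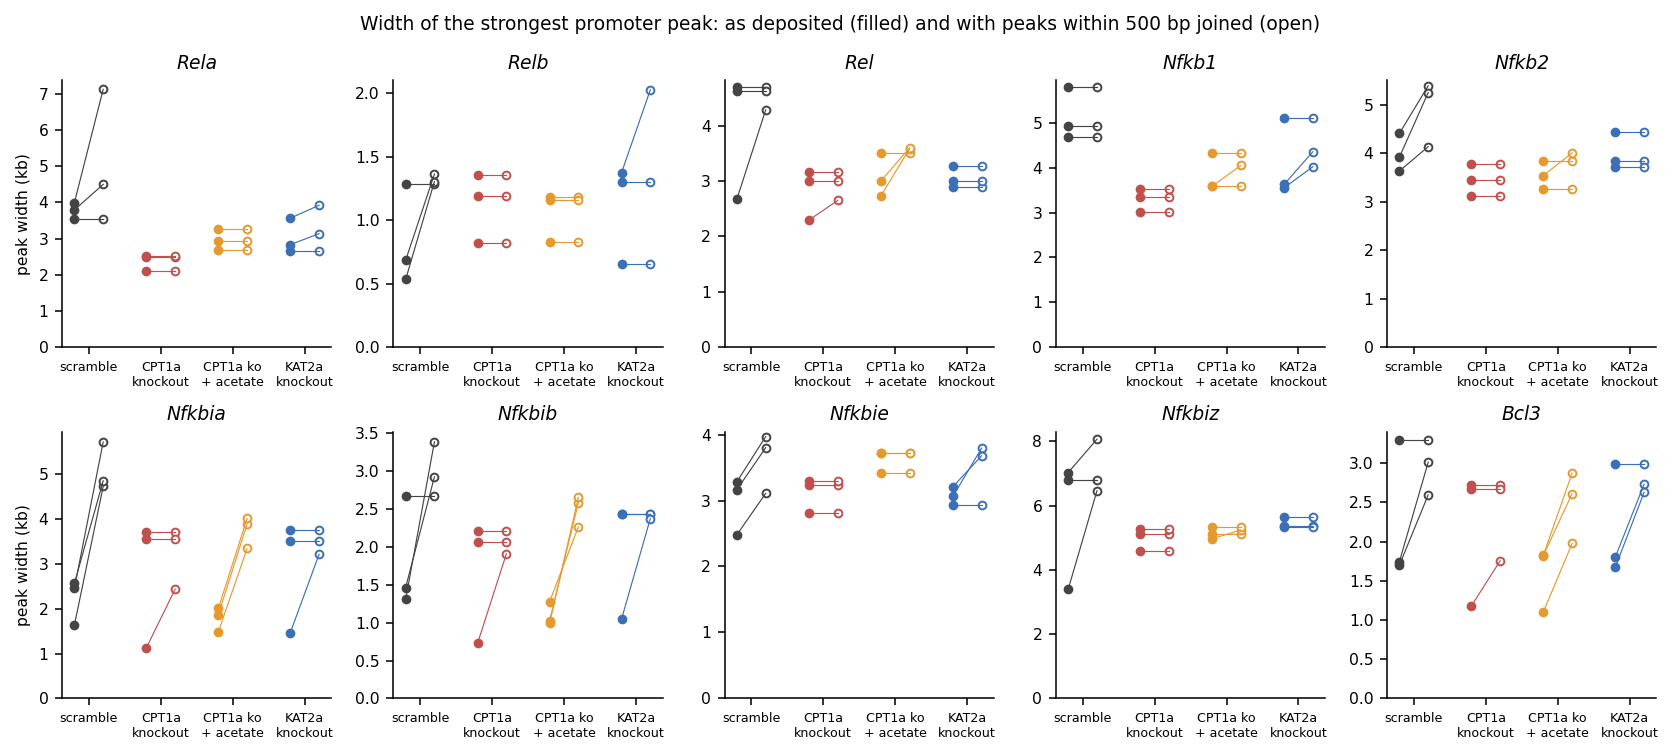
Width in kb of the strongest promoter peak of each member in each library, as deposited (filled) and with peaks within 500 bp joined (open), 3 libraries per group. Joining lengthens the Nfkbia peak to 4732 bp or more in scramble, above all other libraries, while at Rela and Nfkb1 the narrower CPT1a knockout peaks are seen with and without joining.

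The position of the summit, the highest point of a peak, was then measured from the gene's 5′ end. These cases were chosen after their values were seen. At Nfkb1 the summit lay 1066 to 1112 bp into the gene in scramble and 442 to 631 bp in all 9 other libraries, and at Nfkbiz 17615 to 18738 bp against 17130 to 17243 bp. For both the two-sided exact permutation p was 0.00455, the smallest over 220 assignments, and 0.0131 after adjustment over all genes. The shift was general: summits of scramble lay wholly downstream of those of the other 9 libraries in 33.8% of genes (40.7% separated either way), and in 2 of the 10 members. The median summit over all genes lay 604 to 651 bp downstream of the 5′ end in scramble and 346 to 424 bp in the other libraries.

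Nfkbie showed another arrangement, with summits at 320 to 455 bp in KAT2a knockout, 452 to 518 bp in CPT1a knockout, 640 to 975 bp in scramble and 1530 to 1582 bp with acetate. The summits with acetate were the most distal, on average 1056 bp further into Nfkbie than in CPT1a knockout. Nfkbie was the 1 member separated in this comparison, beside 20.6% of genes. A downstream separation of acetate from CPT1a knockout was found in 16.6% of genes, and the two-sided exact permutation p was 0.1, the smallest for 3 against 3 (adjusted p = 0.485). In the other comparisons, 4, 3 and 4 members had separated summits for CPT1a knockout, KAT2a knockout and acetate against scramble, beside 66.2%, 55.2% and 49.9% of genes.

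Inside the gene bodies, regions were built by merging the overlapping peaks of all 12 lists, and a region was counted where it overlapped the gene and came within 1 kb of none of its start sites. A small peak further than 1 kb from a start was therefore not counted where a promoter peak of another library reached over it, as at Nfkbie, Nfkb1, Rela and Rel. By this rule the 12 lists gave 7 regions in 4 members, with 3 in Nfkb1, 2 in Nfkbiz and 1 each in Nfkb2 and Nfkbib, and 6 of them were called in 1 library. Scramble replicate 1, the deepest list, called 6 regions, the other scramble libraries 0, and the other 9 libraries 0 to 2, so the scramble count rests on that library. 1 intronic region recurred: chr3:135670681-135671562 (GRCm38), 882 bp long and centred 20426 bp from the 5′ end of Nfkb1, was called in 5 libraries. Of these, 1 was scramble, 1 CPT1a knockout, 2 acetate and 1 KAT2a knockout, with fold enrichments of 3.95 to 5.35, which is weak beside 30.3 to 59 at the Nfkb1 promoter. In 0 members did region numbers separate 2 groups. Of the 5455 genes with any such region, 9.04%, 8.23% and 7.99% separated CPT1a knockout, KAT2a knockout and acetate from scramble, 5.24% all 9 other libraries from scramble, and 0.495% acetate from CPT1a knockout.

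Other genes of the pathway were examined from a list of 53 kinases, adaptors, receptors and regulators, Kat2a among them, 52 of which could be tested. In CPT1a knockout against scramble the promoter ranks of 5 rose and those of 2 fell, beside 5.1% and 5.46% of all genes. Among those that rose, the smallest adjusted p-values were those of Kat2a itself (1.41, adjusted p = 0.00414), Tnip2, an A20-binding protein (1.22, adjusted p = 0.00611), and Nkrf, a repressor of NF-kB targets (1.11, adjusted p = 0.0169). Lower were Tnip1, which acts with A20 (-1.15, adjusted p = 0.00765), and Tnfaip3, which encodes A20, a feedback inhibitor of the pathway (-1.49, adjusted p = 0.0131). In KAT2a knockout, Ikbkb, the gene for the kinase IKKb, rose by 1.20 (adjusted p = 0.0251) and Tnip1 fell by 0.94 (adjusted p = 0.036). Kat2a, Tnip2 and Nkrf were also higher there (0.88, 0.55 and 0.59) and Tnfaip3 lower (-1.03). None of these passed the threshold (limma adjusted p 0.06 to 0.212). For the pathway genes, fits with calling depth as a covariate or with a library left out are not given here.

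With acetate against scramble, Kat2a rose by 0.90 (limma adjusted p = 0.0462) and Tnfaip3 fell by 1.42 (adjusted p = 0.0263). None of the 52 passed in acetate against CPT1a knockout. The median of the list was 0.20 in CPT1a knockout, 0.16 in KAT2a knockout and 0.10 with acetate against scramble, and -0.06 between acetate and CPT1a knockout. In width, 16, 3 and 6 genes of the list were narrower than scramble, beside 25.1%, 2.91% and 6.25% of all genes, and 0 were wider. None passed between acetate and CPT1a knockout. Btrc, which encodes an E3 ligase subunit that recognises phosphorylated IkBa, came first by adjusted p in both knockouts (log2 width -1.79 and -1.41, adjusted p = 0.000721 and 0.00249), followed by Tnfrsf1a, the TNF receptor gene (-1.04 and -0.84), and Tab2, an adaptor of the kinase TAK1 (-0.87 and -0.72).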

How the data were processed

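H3K9ac ChIPmentation libraries of 4T1 spheroids, 3 in each of 4 groups taken from the labels, were analysed from the 12 deposited narrowPeak lists, and the 12 inputs were not analysed here. According to the methods, the authors trimmed reads, aligned them to mm10 with BWA and removed duplicates with Picard, whereas the submitters' processing notes name Bowtie2, SAMtools, deepTools and MACS2. The methods give a version for Picard and for deepTools. Versions of the aligners, SAMtools and MACS2 and the use of inputs in calling are not given in the sources used here. The antibody number differs between labels and methods. The authors deposited for each peak a fold enrichment (ratio of the summit to the local background of its library), a -log10 p-value, a -log10 q-value (at least 2, a q of 0.01) and a score that equals 10 times the -log10 q rounded down. Replicates were not pooled. The spike-in chromatin was not used, so no total amount of H3K9ac was measured.

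The strongest peak within 1 kb of any start site (GENCODE vM21, GRCm38) gave the fold enrichment and width of a gene. Normal scores of ranks within a library, or log2 width, were fitted for 10777 genes and 4 groups with limma 3.58.1 (R 4.3.3, intensity trend), with Benjamini-Hochberg adjustment over all genes and a threshold of 0.05. Single values were compared by two-sided exact permutation tests (numpy 2.4.6), adjusted over all genes with statsmodels 0.14.6. Calling depth was recovered from fold enrichment and p, as no read depth was given here. Data were simulated for CPT1a knockout against scramble over 10777 genes, of which only 200 were shifted. Of these, 4 were recovered at a shift of 1 normal score and 173 at a shift of 2, with 0 and 15 false calls. In the data 10.6% of genes were called in this comparison, so the adjustment was stricter in the simulation. The recovered numbers therefore do not give the sensitivity of the fits above. Peaks on chromosome Y were left out. The members, the pathway list and the alternatives were chosen with earlier results of these data known. Members were named whatever their values, and from the pathway list at most 3 genes past the threshold in each direction and comparison, by adjusted p.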

Additional observations from a re-analysis of the deposited data

How the results depend on the processing

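All 120 pairs of member and library kept their promoter peak with a -log10 q of at least 5, lists of equal length, a window of 500 bp and an overlap of 200 bp. By rank, the members called (1 in each comparison with scramble) became 4 in CPT1a knockout, KAT2a knockout and acetate with -log10 p ranked. They became 0 in acetate against scramble on the untransformed percentile, 2 in KAT2a knockout with a peak needed in 9 libraries only or with the GC trend removed, and 0 in all 3 with calling depth as a covariate. Leaving out 1 library gave 0 to 2 in CPT1a knockout, 0 to 2 in KAT2a knockout and 0 to 1 in acetate against scramble, with 0 in each whenever a scramble library was left out. The 2 came without CPT1a knockout replicate 1 (Relb and Rel), and 0 also came without CPT1a knockout replicate 3 in CPT1a knockout, without acetate replicate 1 or any KAT2a knockout library in KAT2a knockout, and without any acetate library or KAT2a knockout replicates 1 or 2 in acetate. The cause was not tested beyond the fewer libraries. By width, the covered length of all promoter peaks gave 5, 1 and 3 members in CPT1a knockout, KAT2a knockout and acetate against scramble, and joined peaks gave 7, 4 and 6. Leaving out 1 library gave 1 to 4 in CPT1a knockout (1 without scramble replicate 1 or CPT1a knockout replicate 3, and 4 without scramble replicate 2) and 0 to 2 in acetate against scramble (2 without scramble replicate 2). With peaks joined, the width difference of Nfkbia turned to -0.67 in CPT1a knockout and -0.54 in KAT2a knockout, where the scramble peaks were in pieces. In an alternative chosen after seeing the data, ranking by -log10 p took 4 members past the adjusted exact permutation threshold for the other 9 libraries against scramble (Rela 12.6, Relb 38.9, Rel -36.0 and Nfkbia 37.7 points, each adjusted p = 0.0264, beside 22.6% of genes), and none did with the GC trend removed, also added later. No comparison of acetate with CPT1a knockout called a member in any fit.

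Replicate numbers did not pair the libraries: deviations from group means correlated at -0.063 to 0.0595 for the 18 same-numbered pairs and at -0.086 to 0.105 for the 36 others. With the replicate number as a block, rank calls were 1 in CPT1a knockout, 0 in KAT2a knockout and 0 in acetate against scramble, also with the GC trend removed, and 0 in all 3 with calling depth added, while width calls did not move past 1.5 times. The shallowest list had a calling depth of 0.554, and with 3 libraries a group the exact tests gave no p under 0.1.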
